A study of Caenorhabditis elegans with 2 samples.

Results

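The hlh genes of Caenorhabditis elegans code for basic helix-loop-helix (bHLH) transcription factors. Every protein-coding gene whose symbol starts with hlh- in the Ensembl annotation of assembly WBcel235 was taken, which gave 25 genes of 19973 nuclear protein-coding genes. Each was followed through lists of chromatin regions from an immunoprecipitation of CHE-1, the zinc finger factor that gives the ASE taste neurons their identity. The strain was OP677, which carries the allele unc-119(tm4063) III and the transgene wgIs677, a line that stably expresses CHE-1 with GFP and FLAG at its C-terminus. Whole late embryos of mixed sex were collected 6 hours after a synchronization by bleaching of eggs, and chromatin was recovered with an anti-GFP antibody in 2 biological replicates of 1 group. All samples carry the same allele and transgene, and the labels do not give the promoter or the number of copies of the transgene. An untagged strain was not analysed here, so signal that comes from CHE-1 and signal that arises without it cannot be told apart. The same holds for signal from many cells against more signal from few, because whole embryos were used.

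Proteins of the bHLH family bind DNA as dimers, with the basic part touching the DNA and the helix-loop-helix part holding the partners together. Their usual site is the E-box, CANNTG, and many tissue-specific members pair with a widely expressed E protein, which is HLH-2 in the worm. The hlh genes include proneural factors of the achaete-scute type, the muscle factor HLH-1, the mesodermal Twist factor HLH-8, Olig-like factors known from glia, the REF-1 family of Notch signalling, and HLH-30, the worm form of the lysosome and autophagy regulator TFEB.

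The authors deposited an IDR set of 791 regions (irreproducible discovery rate, which keeps regions that rank alike in replicates). They also deposited longer lists of 30000 regions each, for both replicates together, for replicate 1 and for replicate 2. The longer lists are labelled as peaks and background, the input to the IDR procedure. A region in them, above all one of low rank, may therefore be background. The score of a region is the authors' own, its scale is not stated, and it is compared only within a list, where rank 1 is the highest. The files hold no read counts, so the depth of the libraries is unknown. A region was given to a gene when its summit lay between 2000 bp upstream of the gene start and the gene end. Distances are counted from the gene start along the gene, and negative distances lie upstream.

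Sequences are given for the summit base and 50 bases on either side in 5 regions in the list of both replicates, all in build ce11 (assembly WBcel235) and read from the RefSeq genome in the direction of the gene. They are the strongest region at a hlh gene, another strong region of the same gene, and the strongest regions in that list of 3 further members. These members had high ranks in a replicate. For hlh-1 in both replicates and for hlh-33 in replicate 1, however, the best rank belonged to another region. The region of hlh-2, rank 3330 in that list, is not printed. The first is at chrIV:4020082-4020182 and the second at chrIV:4026106-4026206, both on the minus strand. The hlh-11 sequence is at chrIII:9623689-9623789, the hlh-1 sequence at chrII:4521829-4521929 and the hlh-33 sequence at chrIII:1854103-1854203, all on the plus strand. Capitals mark every E-box CANNTG.
hlh-30 strongest region: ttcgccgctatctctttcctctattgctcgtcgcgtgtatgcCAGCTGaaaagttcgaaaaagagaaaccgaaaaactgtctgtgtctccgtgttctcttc
hlh-30 region of rank 1066: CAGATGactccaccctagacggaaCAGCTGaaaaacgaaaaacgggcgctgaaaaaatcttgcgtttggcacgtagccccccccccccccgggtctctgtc
hlh-11 strongest region: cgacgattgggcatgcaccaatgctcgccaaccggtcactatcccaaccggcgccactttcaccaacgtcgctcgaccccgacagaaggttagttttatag
hlh-1 strongest region: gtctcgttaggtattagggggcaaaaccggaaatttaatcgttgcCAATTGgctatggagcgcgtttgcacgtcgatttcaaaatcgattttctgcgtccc
hlh-33 strongest region: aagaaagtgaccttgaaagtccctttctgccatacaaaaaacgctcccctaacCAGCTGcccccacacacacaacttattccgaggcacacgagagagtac

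Both hlh-30 windows and the hlh-33 window hold the E-box form CAGCTG, the hlh-1 window holds another form, and the hlh-11 window holds none. The window of the hlh-30 region of rank 926, not printed because it runs into a UTR, holds no E-box. Of all 22 hlh-30 windows in that list, 2 (9.09%) hold CAGCTG, and those are the printed ones. These letters are a description and not a binding site shown by the data.

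In the IDR set, hlh-30 was the only hlh gene with a region. That is 1 of 25 genes (4%, exact Clopper-Pearson 95% interval 0.101 to 20.4%), beside 4.24% of all 19973 genes. Among the highest 791 regions of each replicate, hlh-30 was again the only member. There the count of 1 stands beside 4.21% of all genes in replicate 1 and 4.1% in replicate 2. The intervals cover counting error over genes only, and genes that are copies of each other are not independent.

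With the limit widened to the highest 5000 regions, 3 hlh genes were reached in the list of both replicates, namely hlh-30, hlh-11 and hlh-2, beside 20% of all genes. Replicate 1 reached 5 members, the same 3 with hlh-1 and hlh-33, beside 20.4%. Replicate 2 reached 5, the same 3 with hlh-1 and hlh-8, beside 20%. The share of hlh genes was 12% in the list of both replicates and 20% in each replicate, close to that of all genes in the replicates.

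Any region at all was found at 12 hlh genes in the list of both replicates (48%, exact Clopper-Pearson 95% interval 27.8 to 68.7%), beside 60.1% of all genes. Replicate 1 had 10 members with a region (40%), beside 62.6%, and replicate 2 had 12 (48%), beside 63.6%. All 3 longer lists had a region at the same 9 genes (36%), beside 48.6% of all genes: hlh-1, hlh-2, hlh-8, hlh-10, hlh-11, hlh-16, hlh-17, hlh-30 and hlh-33. No list had one at 11 members (44%, exact Clopper-Pearson 95% interval 24.4 to 65.1%), beside 24.4% of all genes. These shares were not tested. Window length and repeated sequence, which differ between the members with and without regions, were measured beside them.

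**Figure D1:**
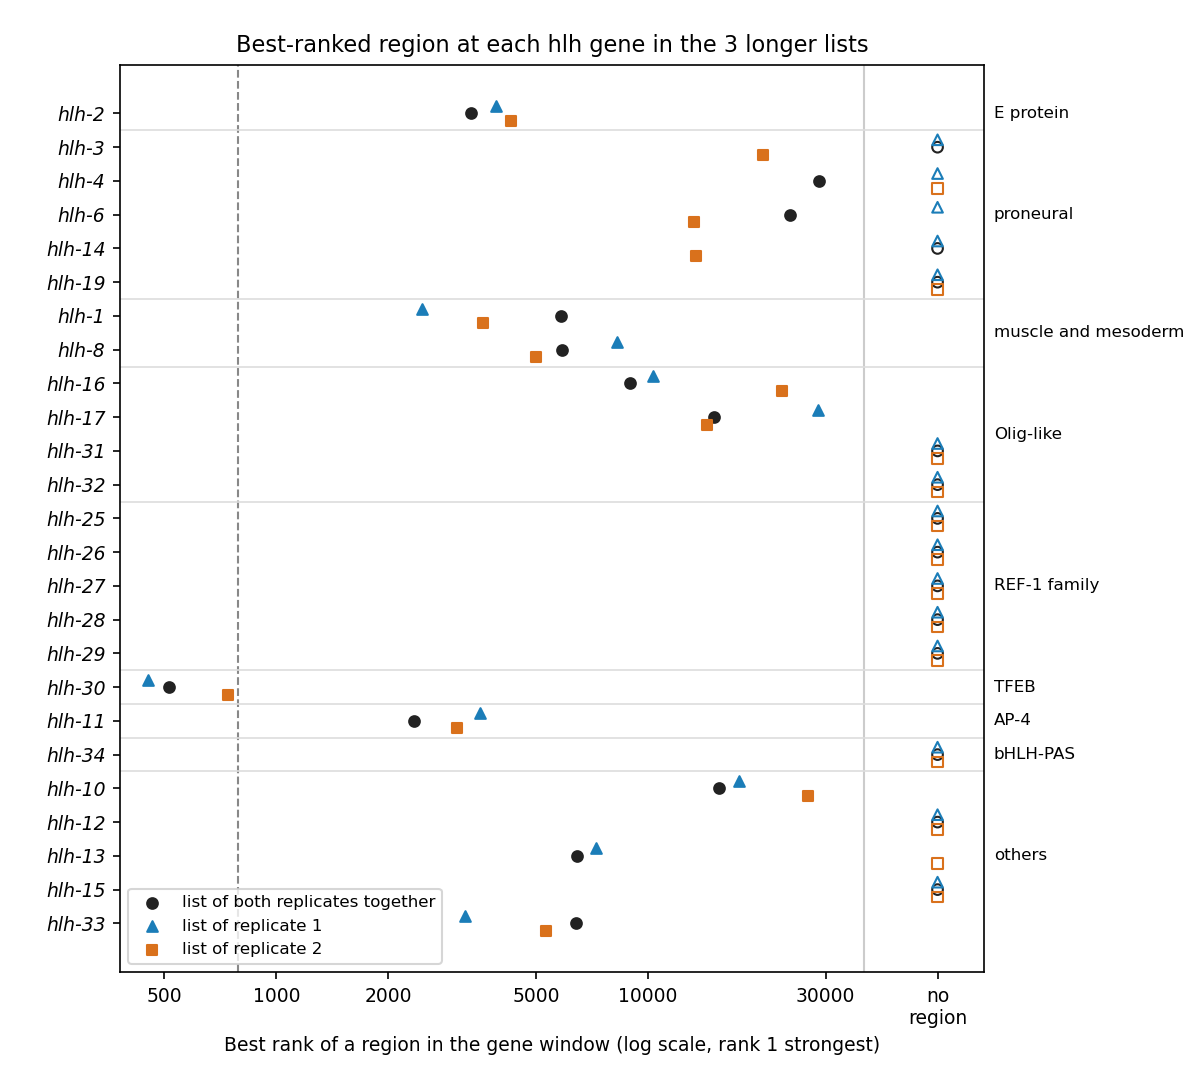
Best rank of a region in the window of each of the 25 hlh genes (x axis, log scale, rank 1 strongest) in the list of both replicates (circles), of replicate 1 (triangles) and of replicate 2 (squares), with genes grouped by role. The dashed line marks rank 791, the size of the IDR set, and open symbols at the right mark genes with no region; hlh-30 lies left of the line in all 3 lists and the 5 hlh genes of the REF-1 family have no region.

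The gene hlh-30 (chromosome IV, 4014793 to 4034951, minus strand) carried the strongest region of any member. Its IDR region spans 4019890 to 4020373, in an intron, with the summit 14819 bp into the gene. The region ranked 516 in the list of both replicates, with a score of 152.9. Its counterparts in the replicates ranked 452 (score 97.57) and 741 (score 63.92), with summits at 14758 and 14849 bp. All 3 ranks thus fall within the highest 791, replicate 2 close to the limit. The nearest annotated transcript start of hlh-30 lies further along the gene, and the summit is at -1088 bp from it. Among gene starts, that of the neighbour W02C12.2 is nearest, with the summit at -12159 bp from it. The region overlaps the non-coding RNA gene W02C12.4 (4019990 to 4020060, plus strand), whose part in the signal was not tested.

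Regions were spread over the whole of hlh-30. The list of both replicates held 22 in its window, replicate 1 held 23 and replicate 2 held 16. Several of them overlap, and joined where they touch they made 15, 13 and 11 stretches. The region of second rank, 926 with a score of 120.1, has its summit in a coding exon at 15980 bp, 68 bp past an annotated transcript start, and ranked 947 and 1507 in the replicates. The next, rank 1066 with a score of 113.2, lies in an intron at 8795 bp and ranked 1998 and 950. They are followed by rank 1317 (103.8, at 18210 bp) and rank 1657 (96.43, at 6600 bp). Of the 22 regions, 8 were among the highest 5000.

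Most of these regions overlapped regions in the lists of the single replicates. The list of both replicates comes from the same 2 replicates, so this overlap is not independent evidence. Of the 22, 15 (68.2%) overlapped a region in each replicate, beside 58.9% of all nuclear regions of that list. Another 5 overlapped one in replicate 1 only and 2 in replicate 2 only. The replicates did not rank them alike throughout. The region at 19541 bp, rank 2904 together, had its closest summit at 19542 bp with rank 3080 in replicate 1. In replicate 2 it was at 19613 bp with rank 15448. The region also overlapped rank 1014 in replicate 1, whose summit lay at 19781 bp. A region at 3991 bp ranked 6023 together, overlapped rank 1169 in replicate 1 and overlapped no region in replicate 2.

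By distance, the 2000 bp upstream of the start held 2 regions, the best of them at rank 7159. The first 5000 bp of the gene held 4 (best rank 6023), the next 5000 bp 6 (1066), the following 5000 bp 4 (516) and the remainder 6 (926). The pair of highest ranks therefore lay in the downstream part of hlh-30, on either side of the first of the transcript starts annotated from 15907 to 16620 bp, and not at the gene start. In place, 14 of the 22 summits were in introns, 4 in coding exons, 2 in UTR exons and 2 upstream.

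**Figure D2:**
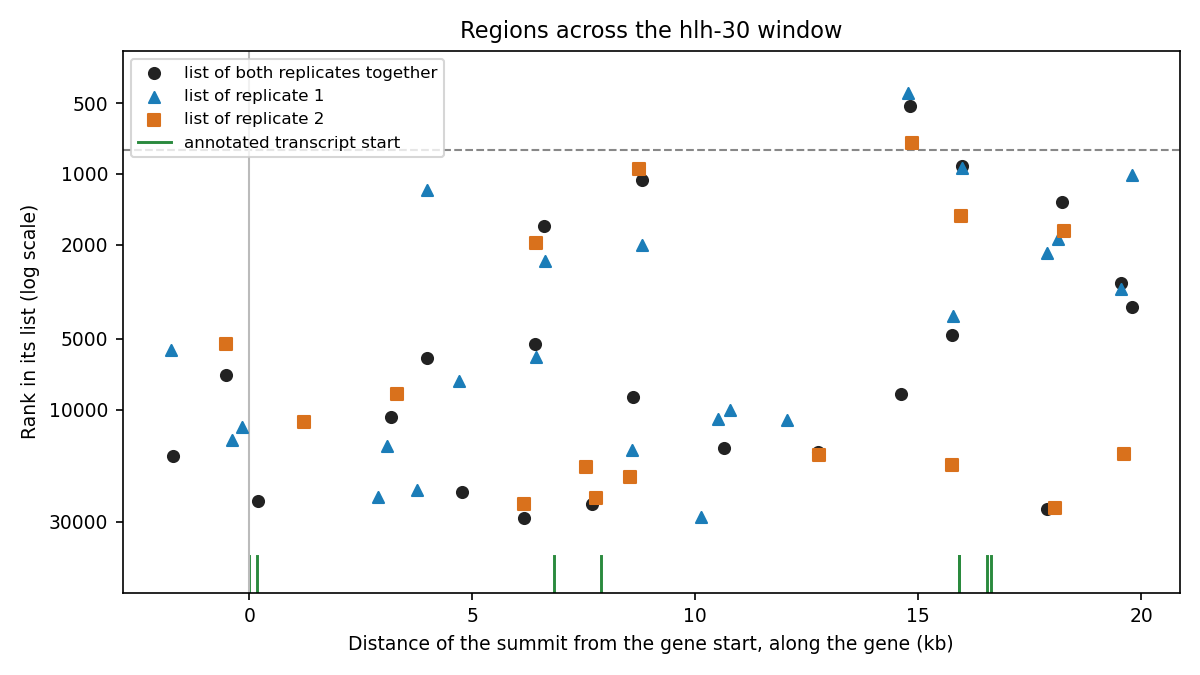
Regions of the 3 longer lists across the hlh-30 window, by the distance of the summit from the gene start (x axis, kb) and the rank in the list (y axis, log scale, strongest at the top). Green ticks mark annotated transcript starts, the vertical line the gene start and the dashed line rank 791; the region whose summit is 14819 bp into the gene in the list of both replicates lies above the dashed line in all 3 lists.

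The length of hlh-30 bears on these counts. Its window of 22159 bp is the longest of any member, where the median is 3504 bp. Among the 263 genes with windows over 20000 bp, the median was 11 regions, and 32 (12.2%) had an IDR region. In that group 22 genes (8.37%) had at least as many regions as hlh-30. Among all genes the share with as many was 0.11%.

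In the list of both replicates and in replicate 2 the member of second rank was hlh-11 (chromosome III, 9619711 to 9626529, plus strand), the worm counterpart of the human factor AP-4. It had 8 regions in the list of both replicates, 6 in replicate 1 and 7 in replicate 2. Its best region, at 9623497 to 9623980, has its summit in a coding exon at 4028 bp and ranked 2348 with a score of 86.87. The replicates placed their best region at the same spot, at 4028 bp with rank 3534 and at 3993 bp with rank 3061. In replicate 1, hlh-1 and hlh-33 ranked above it. A second region in an intron near the start, at 571 bp, ranked 4480. So hlh-11, like hlh-30, had its strongest region inside the gene, and all lists gave it the same position.

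The E protein gene hlh-2 (7190788 to 7193920, minus strand) ranked 3330, 3887 and 4286 in the list of both replicates, replicate 1 and replicate 2. Daughterless is its fly counterpart, and the protein serves as dimer partner of many other bHLH factors. The scores were 78.6, 45.82 and 37.51. The best region lay upstream in the list of both replicates (-956 bp) and in replicate 2 (-1154 bp), and in an intron in replicate 1 (1142 bp). That intron region ranked 5547 in the list of both replicates. The ranks of hlh-2 were close together while the position of its best region was not.

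In the muscle and mesoderm class both members had regions in every list. For hlh-1 (chromosome II, 4518574 to 4522528, plus strand), the worm MyoD of body-wall muscle, the ranks were 5827, 2469 and 3598. The scores were 66.67, 51.7 and 39.38. Its best region differed in each list, at 3305 bp in an intron, at -1142 bp upstream and at 1864 bp in an intron. The summit at 3305 bp is nearer to the start of a neighbour, B0304.4 (1343 bp). All 6 regions of hlh-1 in the list of both replicates overlapped a region in each replicate, as did 58.9% of all nuclear regions of that list. For hlh-1 the replicates thus shared these regions and differed in their order.

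For hlh-8 (chromosome X, 8116457 to 8120351, plus strand), the Twist factor of the postembryonic mesoderm lineage, the ranks were 5859, 8246 and 4992. The best region was the same intron region in all 3 lists, at 2216, 2262 and 2131 bp. A weaker region near the start, at 195 bp, ranked 25548. Each list held 2 regions at hlh-8.

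The 5 proneural genes of the achaete-scute type had low ranks or no region, and replicate 1 had none at any of them. Best known for neuronal or gland cell fates are hlh-3, which acts in the HSN motor neurons, hlh-4 in the ADL sensory neurons, hlh-6 in pharyngeal glands and hlh-14 in the lineage that gives rise to the ASE neurons. For hlh-14 (chromosome II, 5737785 to 5738895, minus strand) the only region was in replicate 2, at 253 bp in a coding exon, with rank 13479 and a score of 25.8. For hlh-3 replicate 2 alone had a region, at -57 bp with rank 20353. The list of both replicates had a region at hlh-6 (-648 bp, rank 24114) and at hlh-4 (-1825 bp, rank 28799). Replicate 2 had 3 at hlh-6, the best at -1645 bp with rank 13286, and none at hlh-4. That best region is nearer to the start of a neighbour, hal-3 (652 bp). No list had a region at hlh-19. None of these 5 genes therefore had a region in its window in all 3 lists. The replicate 2 region at -1645 bp from hlh-6 does overlap regions of the other lists, of rank 22125 together and rank 22996 in replicate 1, whose summits lie outside the window.

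Of the 4 Olig-like genes, hlh-16 and hlh-17 had regions close to their starts in every list. The hlh-16 ranks were 8936, 10310 and 22967, with summits at 120, 56 and 108 bp. For hlh-17 (chromosome IV, 16254764 to 16256274, plus strand), known from the sheath glia of the head, the ranks were 15054, 28665 and 14392, with summits at 83, -16 and 83 bp. The positions agree to about 100 bp although the ranks are low. Neither hlh-31 nor hlh-32 had a region. The window of hlh-31 ends short of the hlh-17 region, whose summit is 2783 bp upstream of the hlh-31 start, and the summit nearest to hlh-32 was at 32514 bp in the list of both replicates, 30659 bp in replicate 1 and 29590 bp in replicate 2. Coding sequences of hlh-17 and hlh-32 match at 254 bases, which is 80.6% of the 315 bases of hlh-32, the longer of the pair.

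The 5 hlh genes of the REF-1 family had no region in their windows in any list. These members, hlh-25, hlh-26, hlh-27, hlh-28 and hlh-29, code for proteins with a pair of bHLH domains, several of which are targets of Notch signalling in the embryo. No region of any longer list had its summit in one of their windows, which are 2904 to 3167 bp long. They include pairs of near copies: the coding sequences of hlh-28 and hlh-29 match at 714 of 717 bases (99.6%) and those of hlh-25 and hlh-27 at 796 of 804 (99%). The gene ref-1, which gives the family its name, had a region in replicate 1 only, at -1056 bp with rank 12397.

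Upstream sequence of hlh-28 and hlh-29 is copied as well. The 60 bases just before each gene start are shown because they are identical at 59 positions, with the differing base in capitals. They lie at chrX:17550995-17551054 on the plus strand and at chrX:17548640-17548699 on the minus strand of ce11, read from the RefSeq genome in the direction of each gene.
hlh-28 upstream: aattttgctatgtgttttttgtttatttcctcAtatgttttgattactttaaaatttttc
hlh-29 upstream: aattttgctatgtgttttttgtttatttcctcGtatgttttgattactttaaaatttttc

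Short reads from such sequence fit more than 1 place in the genome, and how the authors treated such reads is not given in the sources used here. The share of 31-base words of a window that occur more than once in the genome was 65.2% for hlh-28 and for hlh-29, 33.2% for hlh-27, 32.9% for hlh-25 and 22.4% for hlh-26. Of the other 20 members none exceeded 11.23%. Among all genes with at least 20% repeated words (2034 genes), 41.9% had a region in the list of both replicates and 1.82% an IDR region. With fewer repeated words, the shares were 62.2% and 4.51% of 17939 genes. Outside the REF-1 family, 12 of 20 hlh genes (60%) had a region. This split was set with the data in view, and the part of repeated sequence in the result was not tested.

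**Figure D3:**
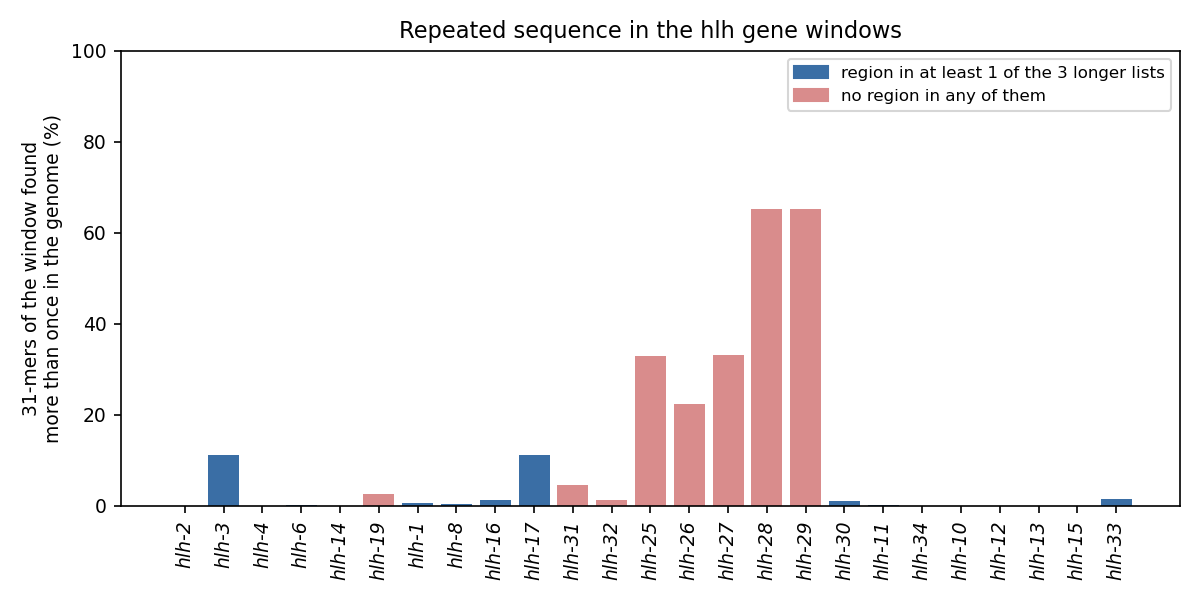
Share of 31-base words in each hlh gene window that occur more than once in the genome (y axis, %), with genes in order of role. Blue bars are genes with a region in at least 1 of the 3 longer lists and pink bars genes with none; the 5 REF-1 genes, from 22.4% to 65.2%, are all pink, as are 6 genes with little repeated sequence.

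The remaining members differed widely. For hlh-33 (chromosome III, 1855392 to 1859602, plus strand) the ranks were 6408, 3225 and 5329, with the best region at -1239 bp in the list of both replicates and at -1240 bp in replicate 2. In replicate 1 it was a coding exon region at 3017 bp, which is nearer to the start of a neighbour, ddp-1 (-1479 bp). For hlh-10 (chromosome V, 9280512 to 9282210, minus strand) the ranks were 15480, 17517 and 26911. For hlh-13 (chromosome X, 4249249 to 4250766, plus strand) a region at -1961 bp ranked 6436, and at -1965 bp in replicate 1 it ranked 7218. That region is at the edge of the window and lies at -76 bp from the start of a neighbour, F48D6.4. Replicate 2 had a summit at -2119 bp (rank 10040), just outside the window. The hlh-13 region is thus much nearer to another gene. No list had a region at hlh-12, which guides migration of the gonad together with hlh-2, at hlh-15 or at hlh-34, a bHLH-PAS gene.

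A few strong regions lay outside hlh windows. A region of rank 166 (chromosome III, 1859511 to 1859994, score 319.8; ranks 184 and 186 in the replicates) overlaps the end of hlh-33, but its summit is 151 bp past that end and at -135 bp from the start of ddp-1, a gene of mitochondrial protein import. A region of rank 320 (chromosome II, 5543459 to 5543942, score 210.4; ranks 220 and 978) has its summit 3488 bp upstream of hlh-27 and within 100 bp of sls-2.2, a spliced leader RNA gene. The summit nearest to hlh-34 in the list of both replicates, at -8060 bp, ranked 483. None of these 3 regions counts as a region of a hlh gene under the 2000 bp rule.

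The 11 members with no region had short windows, 2425 to 3905 bp with a median of 3148 bp. The other 14 had windows of 3111 to 22159 bp with a median of 3641 bp. Over all genes the share with a region in the list of both replicates rose with window length, from 44.3% up to 3000 bp and 49.6% from there to 4000 bp to 63.3% up to 6000 bp, 83.3% up to 20000 bp and 96.6% above. The hlh genes had 0 of 3, 6 of 16 (37.5%), 3 of 3, 2 of 2 and 1 of 1 in these bins, which were set with the data in view. All 6 members with windows over 4000 bp had a region, and all 13 without one in that list had shorter windows.

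**Figure D4:**
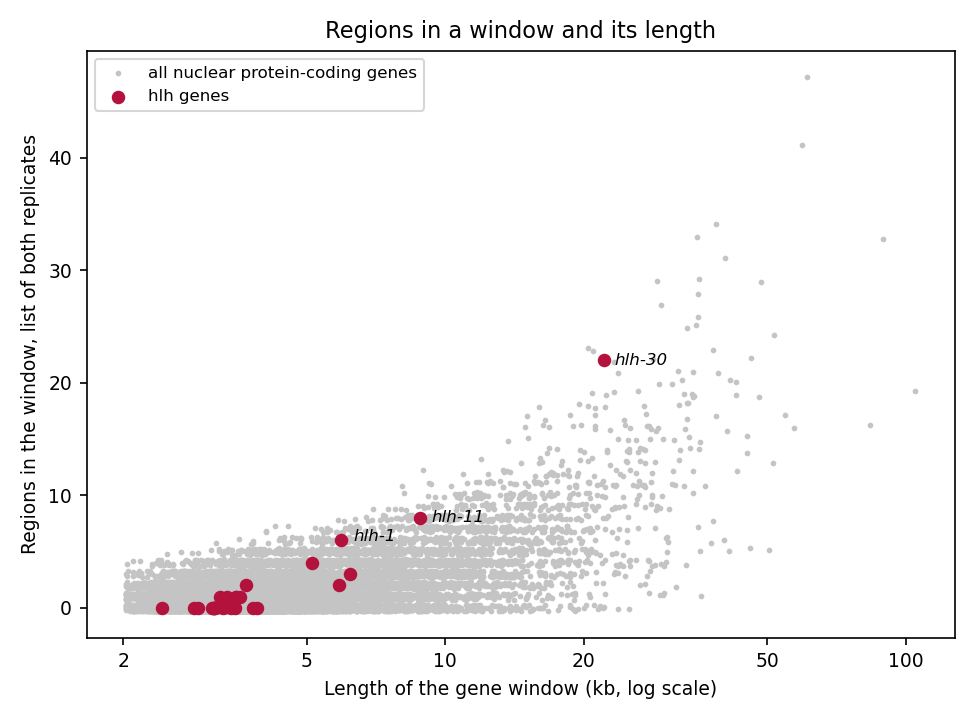
Number of regions of the list of both replicates in a gene window (y axis) against the length of the window (x axis, kb, log scale) for all nuclear protein-coding genes (grey, spread slightly up and down so that points do not hide each other) and the 25 hlh genes (red). Counts climb with length, and hlh-30, with 22 regions in 22159 bp, lies in the upper part of the genes of its length.

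Counted per length, the hlh windows held 0.445 regions per kb in the list of both replicates, against 0.308 for all genes. Without hlh-30 the value was 0.316. In replicate 1 the values were 0.436 with hlh-30, 0.295 without it and 0.309 for all genes, and in replicate 2 they were 0.368, 0.285 and 0.308. The pooled density of the hlh genes above that of all genes thus rests largely on hlh-30, which has the longest window. Its own density was not the highest. In the list of both replicates hlh-1 held 1.01 regions per kb, hlh-30 0.993 and hlh-11 0.907, while 13 members held none.

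Among genes with a region, the best rank of the hlh genes had a median of 6422 (n = 12) in the list of both replicates, 5552.5 (n = 10) in replicate 1 and 9307.5 (n = 12) in replicate 2. All genes with a region had medians of 8779, 9060 and 9212. In the list of both replicates the best region of these 12 members had a median distance of -282.5 bp from the gene start, and single genes ranged from hlh-13 at -1961 bp to hlh-30 at 14819 bp. The order of the members is not settled below the first ranks: for hlh-1 and hlh-8, at 5827 and 5859 together, replicate 1 gave 2469 and 8246. For hlh-33 and hlh-13, at 6408 and 6436 together, replicate 2 gave rank 5329 and no region in the window. The hlh-13 region did overlap a replicate 2 region of rank 10040, whose summit at -2119 bp lay just outside the window.

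**Figure D5:**
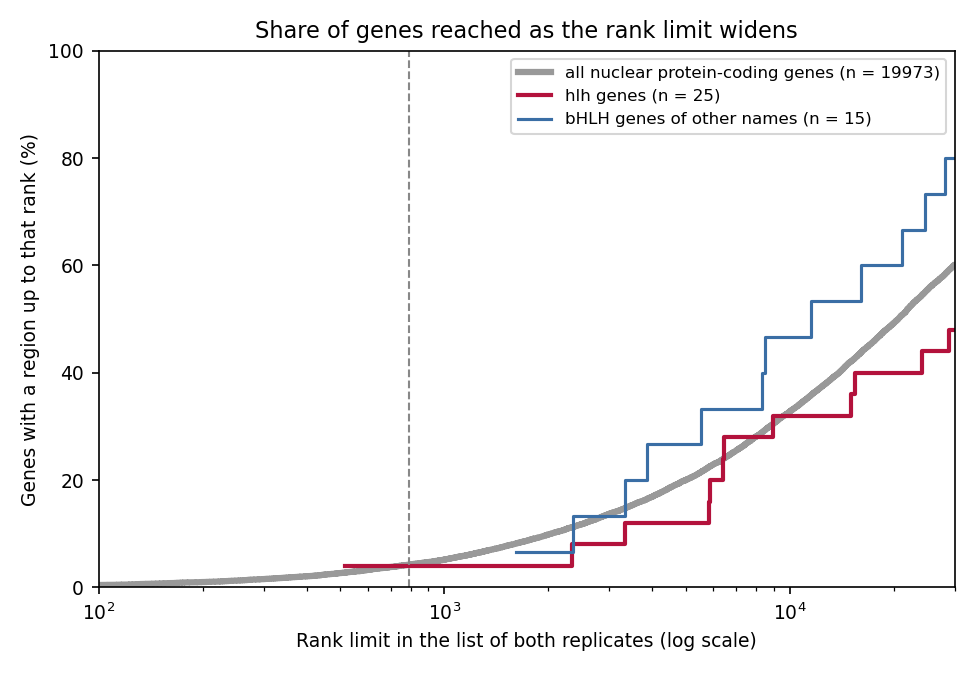
Share of genes with a region up to a given rank in the list of both replicates (y axis, %, against the rank limit on a log x axis) for all nuclear protein-coding genes (grey), the 25 hlh genes (red) and the 15 picked bHLH genes of other names (blue). The dashed line marks rank 791; at the end of the list the shares are 60.1%, 48% and 80%.

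In place, 27 of the 52 gene and region pairs of the hlh genes were in introns (51.9%), 13 upstream (25%), 9 in coding exons (17.3%) and 3 in UTR exons (5.77%). Over all genes 34% were in introns and 40.7% upstream. Without hlh-30, introns held 13 and upstream sequence 11. For 41 of the 52, the member's own start was the nearest start of a protein-coding gene. None of the 52 had its summit within 100 bp of a tRNA, snoRNA or snRNA gene.

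Of the 52 regions, 37 (71.2%) overlapped a region in each replicate, 9 in replicate 1 only, 5 in replicate 2 only and 1 in neither. Among all nuclear regions of the list of both replicates, 58.9% overlapped one in each replicate. For the 9 members with regions in all 3 lists, the best region was at the same place in 5, namely hlh-8, hlh-11, hlh-16, hlh-17 and hlh-30 (55.6%). Among all 9701 such genes the share was 51.1%.

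Motifs were sought on both strands in the same windows, 50 bases on either side of each summit. The E-box CANNTG was in 18 of the 52 hlh windows (34.6%), beside 31.9% of all nuclear regions of the list and 33.1% of nuclear IDR regions. Its form CAGCTG, which is also counted as CANNTG, was in 4 (7.69%), beside 2.44% and 2.99%. The form CACGTG, the one bound by TFEB and Myc-like factors, was in 0, beside 2.16% and 1.43%. The core known for CHE-1 in ASE neurons, GAAACC or GAAGCC, was in 4 (7.69%), beside 8.56% and 6.23%, and the strongest hlh-30 window is among them. CGCACA was in 2 (3.85%), beside 3.6% and 13.6%. The hlh windows held 43.1% G and C, all regions 40.8% and IDR regions 49.1%. Overlapping windows share bases, so these counts are few and not independent.

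A list of 15 bHLH genes of other names, picked by name and perhaps not complete, had no IDR region. That is 0 of 15 (exact Clopper-Pearson 95% interval 0 to 21.8%), beside 4.24% of all genes. In the list of both replicates 12 of these genes (80%) had a region, beside 60.1% of all genes. In all 3 longer lists 10 (66.7%) had one, beside 48.6%. The best ranks were those of cky-1, a bHLH-PAS gene (1615 together, 8342 and 1215 in the replicates, with its best summit 61 bp upstream in the list of both replicates), of mdl-1, a Mad-like gene (2362, 2069 and 8011), and of sbp-1, the SREBP of lipid synthesis (3328, 5911 and 1527). Of these 15, only cnd-1, a neurogenic gene of the NeuroD type, had no region in any list. Their windows had a median of 4210 bp, longer than the 3504 bp of the hlh genes, and the difference between both sets was not tested. The tagged gene itself, che-1, had no region in any of the lists.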

How the data were processed

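Per the labels and descriptions deposited with the samples, peaks and background were listed for each replicate and for both together. These lists were the input to the irreproducible discovery rate procedure. For the caller, the aligner and the threshold, nothing is given in the sources used here. The deposited signal column, made by the authors, was used to rank regions within a list, highest first. The q column deposited by the authors is a score of unstated scale and was used only as an alternative ranking. The 791 IDR regions were the highest 791 of the list of both replicates. Lists of build ce10 and the accompanying notes were not used.

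Genes came from Ensembl release 115 on WBcel235, and bases from the RefSeq genome of that assembly. The rule for region and gene, with 2000 bp upstream, was checked on simulated data. Repeated sequence was the share of 31-base words of a window found more than once in the genome, on either strand. Intervals are exact Clopper-Pearson 95% intervals. With 1 group and 2 replicates there was no test between groups.

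Named genes are the hlh genes with an IDR region or a region among the highest 791 of a replicate, the 5 best in the list of both replicates, those lacking a region in a list, the members of each role, the 3 best bHLH genes of other names, and che-1. Neighbouring genes were named after their values were seen. Members and lists were chosen with earlier results of these data known. Alternatives covered the window, the assignment of regions, the number and ranking of regions, regions at tRNA, snoRNA and snRNA genes, and each replicate left out. Tables were made with pandas 2.3.3, numpy 2.4.6, Biopython 1.88 and scipy 1.17.1 in Python 3.11.15, and figures with matplotlib 3.10.9.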

Additional observations from a re-analysis of the deposited data

How the results depend on the processing

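The IDR region of hlh-30 is the single call, and it depends on the gene body being counted and on the limit. The count of hlh genes with an IDR region, 1 of 25, was 0 (0%) with the 2 kb upstream alone. It was also 0 with each region given only to the nearest gene start. The same held with the stronger 0.5 of the regions and with ranking by the q column. Under that ranking the best rank of any region in the hlh-30 window was 876 in the list of both replicates. It was 428 in replicate 1 and 839 in replicate 2. Which of the hlh-30 regions held these ranks was not recorded. The count of IDR regions was 2 genes with 5 kb upstream, which adds hlh-27, and with any overlap, which adds hlh-33. Among the highest regions of replicate 1 the count was 0 with the upstream part alone, the nearest start or the stronger 0.5, and 2 with 5 kb or any overlap. In replicate 2 it was 0 under those same 3 settings and with the q column, and 2 with any overlap. Under the other settings run the count was 1. With either replicate left out, that 1 only repeats the count of the other replicate given above.

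The share of all genes with an IDR region, 4.24%, was 3.41% with 1 kb upstream, 3.039% with the upstream part alone and 6.309% with 5 kb. It was 2.649% with the nearest start, 4.736% with any overlap and 3.024% without regions at tRNA, snoRNA and snRNA genes. The share with one of the highest regions was 2.053% with the stronger 0.5 and 8.051% with 2 times as many regions, which goes beyond the IDR set. The median best rank of all genes, 8779, was 9428.5, 10581, 7220.5, 10264 and 8486 under the first 5 of these, 9089 without regions at those RNA genes, and 9060 to 9212 with a replicate left out. That of the hlh genes, 6422, was 5552.5 to 9307.5 with a replicate left out. The median distance of the best region at hlh genes, -282.5 bp, was 1290 bp with 1 kb upstream, -1239 bp with the upstream part alone, -1961 bp with 5 kb, -648 bp with the nearest start, and 180.5 to 599 bp with a replicate left out; its sign thus changed with the setting. Part of these shifts follows from the settings themselves. A wider window or more regions can only raise the share of genes, and the upstream part alone allows only negative distances. The cause of the other shifts was not tested.

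The number of hlh genes with any region in the list of both replicates was 12 (48%) in the main setting, beside 60.1% of all genes. It ranged from 9 with the upstream part alone to 17 with 5 kb upstream. The share of all genes with any region was not computed for the other windows, so these counts cannot be set beside it. The picked bHLH genes of other names had none of the highest regions in any setting, beside 4.24% of all genes in the main setting. Depth is unknown and limits what a missing region means. No paired analysis was possible because there is 1 group.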
